A study of Mus musculus with 9 samples.

Results

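The genes described here carry 1 metabolic route: the oxidation of choline to betaine, the use of betaine to remake methionine, and the onward use of the products. They are Chdh and Aldh7a1 (choline oxidation), Bhmt and Bhmt2 (methyl transfer to homocysteine), Dmgdh, Sardh and Gnmt (the glycine end), Mat2a and Ahcy (the methionine cycle) and Cbs (transsulfuration). They are 10 of the 24421 gene rows measured, picked by name. The list was chosen from results of these same 9 mice, so the members' levels and fold changes are given as a description, without a test.

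The RNA came from proximal tubular cells sorted by FACS, 1 library per mouse, although the labels name the tissue as kidney. All mice, labelled C57BL/6, carried SLC34a1GCE, a tamoxifen-inducible Cre knocked into the Slc34a1 gene of the proximal tubule, and R26tdTomato, a red reporter that Cre switches on, and all received 3 mg of tamoxifen per mouse 5 times from 8 weeks of age. The sort was therefore aimed at cells that expressed Slc34a1 at that age, with their descendants, but transcripts typical of other cell types were also measured, as given below. The sex of the mice was not given. The 3 groups held 3 mice each: db/m, the non-diabetic controls; db/db, leptin-receptor mutants with type 2 diabetes given vehicle; and db/db-dapa, the same mutants given dapagliflozin, an inhibitor of the glucose transporter SGLT2, at 1.5 mg/kg/day in the drinking water for 8 weeks. The db/m mice were heterozygotes, so db/db mice differed from them in genotype as well as in diabetes, which cannot be told apart here. The comparisons asked how gene expression in these cells differed with this state, and with dapagliflozin on top of it. Both comparisons with db/m share the same control mice.

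In kidney and liver, choline dehydrogenase and an aldehyde dehydrogenase turn choline into betaine in the mitochondria. Betaine is kept by kidney cells as an osmolyte, or it gives a methyl group to homocysteine, which yields methionine and dimethylglycine. Dimethylglycine is then stripped of its methyl groups to sarcosine and glycine, while methionine becomes S-adenosylmethionine, the methyl donor of most methyltransferases, and returns through S-adenosylhomocysteine to homocysteine. Cystathionine beta-synthase withdraws homocysteine from this cycle towards cysteine.

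Bhmt, Bhmt2 and Dmgdh stand side by side on chromosome 13 in the GRCm38 build: Bhmt at chr13:93616675-93637961 on the minus strand, Bhmt2 at chr13:93655720-93674302 on the minus strand, and Dmgdh at chr13:93674433-93752833 on the plus strand. Bhmt2 and Dmgdh start head to head with 130 bases between them, and the start of Bhmt lies 36341 bases from that of Bhmt2. The sequence between the Bhmt2 and Dmgdh starts (RefSeq, GRCm38.p6, chr13:93674303-93674432, plus strand) is shown because these neighbours kept nearly the same ratio in all 9 mice. The stretch before the RefSeq start of Bhmt (chr13:93637793-93637822, minus strand) is shown because Bhmt did not keep it. Capitals mark matches to the motifs searched.
Bhmt2-Dmgdh interval: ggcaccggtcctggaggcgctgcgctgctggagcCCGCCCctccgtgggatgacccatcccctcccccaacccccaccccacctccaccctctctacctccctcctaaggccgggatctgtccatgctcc
Bhmt stretch: ggcctgctATTGGaCAAAGGTCAgtgtgca

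The interval had a GC content of 70.8% and held 1 GC box (GGGCGG, read here on the other strand). The 250 bases before the RefSeq start of Bhmt had a GC content of 48%, against a median of 52.4% over 32851 promoter windows of that length, and held 1 CCAAT, no TATAAA, no GGGCGG and no CACGTG on either strand. They held 3 copies of AGGTCA, a site that nuclear receptors bind singly or as a repeat, which 0.131% of the windows matched or exceeded. The copy nearest the start is part of CAAAGGTCA, a core of HNF4A and PPARA sites, found in 0.426% of the windows. AGGTCA occurred at least once in 14% of windows, CCAAT in 33.8%, GGGCGG in 32.7%, TATAAA in 12.4% and CACGTG in 6.02%. No member but Bhmt among the 9 of 10 with a RefSeq window held CAAAGGTCA. The GENCODE gene of Bhmt starts 203 bases further upstream, so the shown stretch lies inside that gene. A match describes these letters only.

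Read totals ran from 4817721 to 6571572 estimated counts per mouse in db/m, from 2733349 to 7635669 in db/db and from 6981225 to 9033123 in db/db-dapa. Levels are in CPM, counts brought to the same library total in every mouse with edgeR's TMM factors, and 3 counts were worth 0.339 to 1.02 CPM, far below every member's level, so depth did not limit their detection; such floors cover counting error only. db/db replicate 1 had the smallest library and the lowest level of the 9 mice for 7 of the 10 members, and of the 3 db/db mice for 9. Each member's db/db against db/m value is given below with and without that mouse. A set of 16 proximal tubule markers summed to 29400 to 39200 CPM in db/db, 30400 to 32900 in db/m and 35600 to 45000 in db/db-dapa, with none of the markers at 0 in all mice. A list of 10 distal tubule and thick ascending limb genes summed to 1740 to 3210 CPM in db/m and 1280 to 2620 in db/db. In db/db-dapa the sum was 1370 to 1510 CPM, below every db/m mouse. A list of 10 collecting duct genes summed to 307 to 988 CPM in db/m, 323 to 629 in db/db and 202 to 334 in db/db-dapa. A list of 11 tubular injury genes summed to 2310, 2280 and 1090 CPM in db/db replicates 1 to 3. It summed to 1120 to 1590 CPM in db/m and 1290 to 1980 in db/db-dapa. A dissociation list of 15 immediate-early and heat shock genes summed to 6300 to 8140 CPM in db/m. In db/db it was 5150 to 9890 and in db/db-dapa 6460 to 10900. Leukocyte, endothelial, podocyte, fibroblast and erythrocyte lists reached at most 501, 235, 272, 31.2 and 1460 CPM. The part of these lists in the members' differences was not tested. In these bulk libraries, fewer cells of a type and less RNA per cell cannot be told apart.

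Bhmt, betaine-homocysteine methyltransferase, was the member with the largest difference between groups. It stood at 12, 7.15 and 4.66 CPM in db/m replicates 1 to 3, on 21 to 76 counts. It stood at 24.5, 125 and 176 CPM in db/db replicates 1 to 3, and at 59.6, 104 and 92 CPM in db/db-dapa replicates 1 to 3. Every diabetic mouse, treated or not, was above every db/m mouse, the lowest db/db mouse 2.04-fold above the highest db/m mouse and the lowest db/db-dapa mouse 4.98-fold above it. The treated mice lay within the range of the untreated ones. The spread was wide in db/db, where the highest mouse exceeded the lowest 7.18-fold, against 1.74-fold in db/db-dapa and 2.57-fold in db/m.

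The group means of Bhmt were 7.93 ± 3.71 CPM in db/m, 109 ± 77 in untreated and 85.1 ± 22.8 in treated db/db mice (SD, n = 3 each). The fitted log2 fold change was 3.76 (standard error, SE, 0.61) for db/db against db/m, a 13.6-fold difference, and 3.40 (SE 0.60) for db/db-dapa against db/m, a 10.5-fold difference. Between db/db-dapa and db/db it was -0.36 (SE 0.52), smaller than its standard error. Without db/db replicate 1 the first value was 4.22 and the last -0.82. With db/db replicate 3 left out, the mouse with the most Bhmt, they were 3.23 and 0.17, so the sign of the treated against untreated difference turned with the mouse left out.

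**Figure D1:**
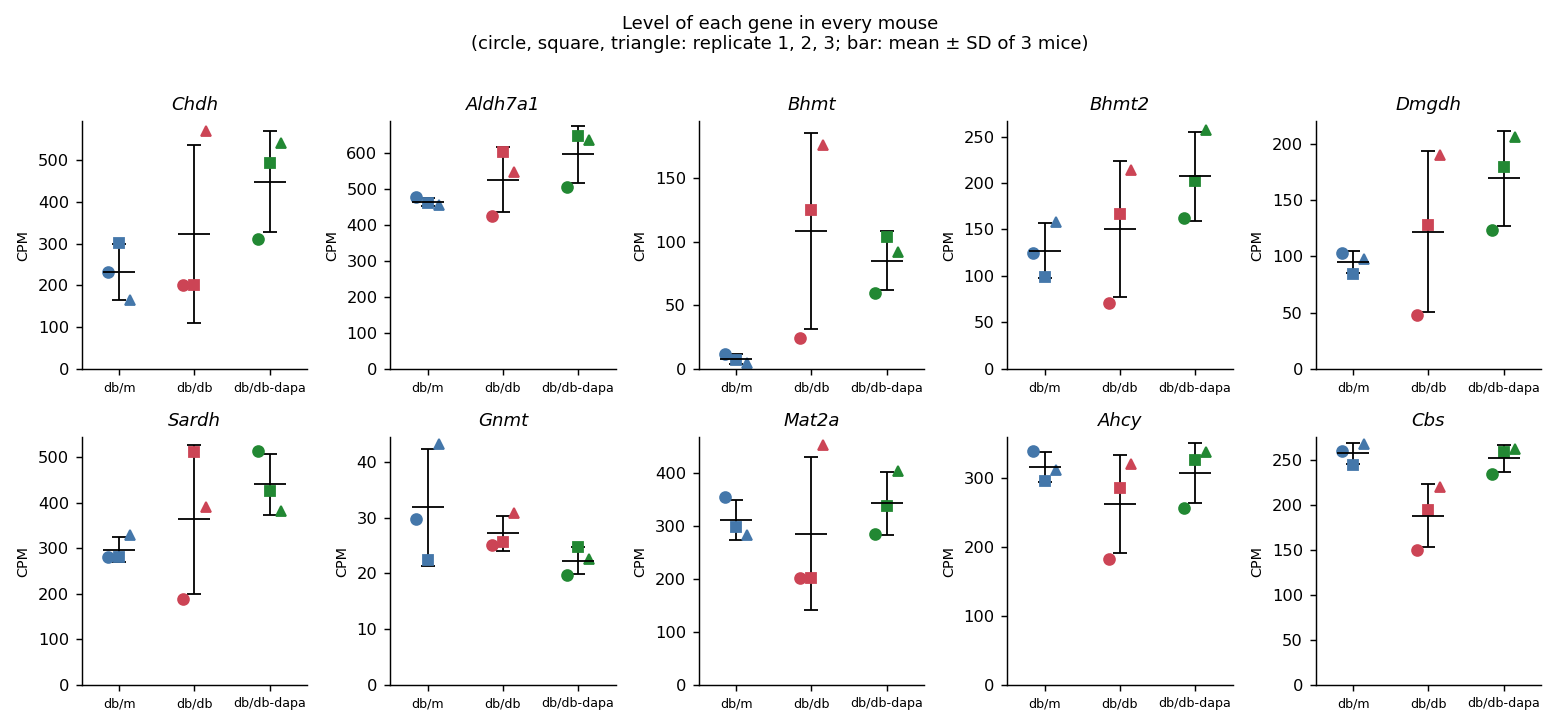
Level of each of the 10 genes in every mouse: the vertical axis of each panel is TMM-scaled CPM starting at 0, the horizontal axis the group, each symbol 1 mouse (circle, square and triangle for replicates 1, 2 and 3), and the black bar the mean ± SD of 3 mice. Bhmt lies at 4.66 to 12 CPM in db/m and at 24.5 CPM or more in all 6 diabetic mice, whereas for most other genes the db/m values fall inside the wide db/db range.

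Of the 10 genes, 1 (Bhmt) was called in db/db against db/m, where called means that edgeR's quasi-likelihood test gave an adjusted p under 0.1 together with a log2 fold change over 1 in size, beside 1.24% of the 15583 genes tested. In db/db-dapa against db/m 1 was called again, Bhmt, beside 1.05% of all genes. Nothing is read from these counts, since the list was chosen on the same mice. All 10 members passed the filter on low values. In db/db-dapa against db/db none of the 10 was called, beside 0% of all genes: edgeR called 0 genes there, while 808 had an unadjusted p under 0.05, DESeq2 called 13 and limma with mouse weights 449.

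Bhmt2, which moves a methyl group from S-methylmethionine to homocysteine, did not share the pattern of its neighbour. It stood at 125, 98.4 and 158 CPM in db/m, at 70.4, 167 and 214 in db/db and at 162, 202 and 257 in db/db-dapa. The db/db mice spread on both sides of the db/m mice, and the db/db-dapa mice were all above them. The log2 fold change was 0.25 (SE 0.34) for db/db and 0.70 (SE 0.35) for db/db-dapa, both against db/m. Leaving out db/db replicate 1 gave 0.58 for the first and leaving out db/db replicate 3 gave -0.10, so its sign turned with the mouse left out.

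Dmgdh, dimethylglycine dehydrogenase, followed Bhmt2 instead. Its levels were 103, 84.4 and 97.2 CPM in db/m, 47.9, 128 and 190 in db/db and 123, 179 and 206 in db/db-dapa. Again db/db replicate 1 was the lowest of all mice and the treated mice were all above the db/m mice. The log2 fold change was 0.37 (SE 0.38) for db/db against db/m, 0.84 (SE 0.38) for db/db-dapa against db/m and 0.46 (SE 0.38) for db/db-dapa against db/db. The first was 0.75 and the last 0.09 when db/db replicate 1 was left out, and the first was -0.10 when db/db replicate 3 was.

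The ratio of Dmgdh to Bhmt2, which share the interval printed above, ran from 0.615 in db/m replicate 3 to 0.889 in db/db-dapa replicate 2, a 1.45-fold span over the 9 mice. The ratio of Bhmt to Bhmt2 ran from 0.0295 in db/m replicate 3 to 0.821 in db/db replicate 3, a 27.8-fold span. In db/m mice it was at most 0.0955 and in diabetic mice at least 0.348, so this ratio within a library, which the scaling between libraries cannot alter, did not overlap between db/m and the diabetic mice.

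Within 600 kb of the Bhmt start lay the starts of 9 protein-coding genes, Bhmt included, and 8 of them, Bhmt again included, were tested. Genes were matched by GENCODE name, and Tent2 had no row under that name. Other names were not searched. These neighbours were looked at after their values had been seen. The 5 that are not members had log2 fold changes of -0.88 to 2.04 in untreated and of -0.32 to 1.27 in treated db/db mice, both against db/m. The highest belonged to Cmya5, a muscle gene at an average of 0.332 CPM in db/m, 1.43 in db/db and 0.873 in the treated mice, which is near the worth of 3 counts. Jmy, the nearest gene on the other side of Bhmt, had log2 fold changes of 0.16 (SE 0.23) and 0.21 (SE 0.23).

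**Figure D2:**
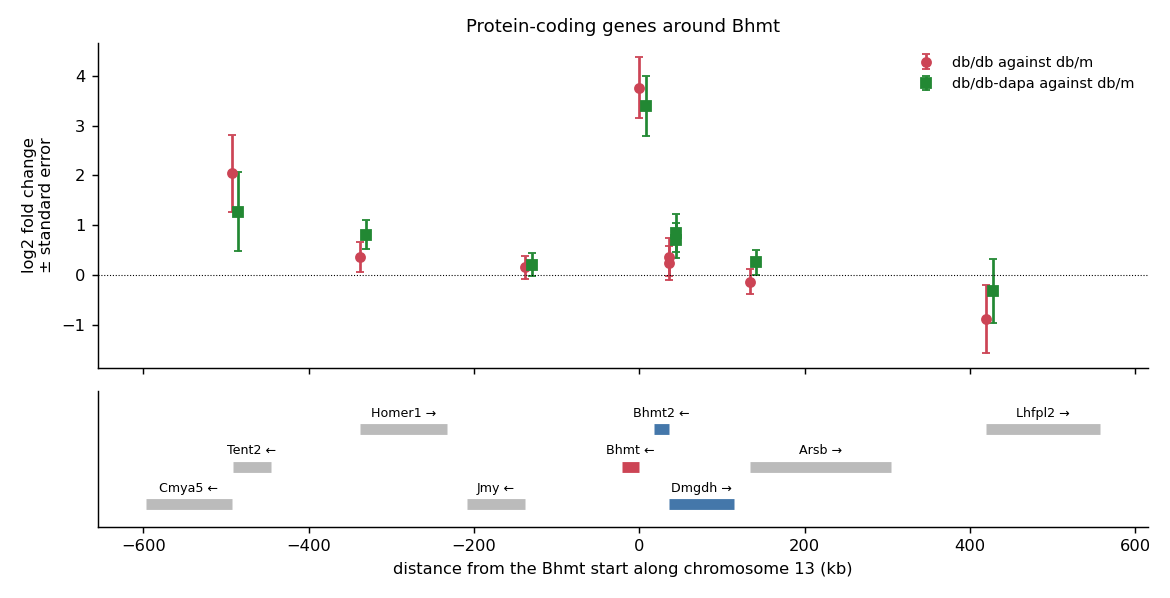
Protein-coding genes around Bhmt: the upper panel gives the log2 fold change ± SE against db/m (circles db/db, squares db/db-dapa, drawn 8 kb to the right to keep them apart) at each gene's start, the lower panel the extent and direction of each gene, by distance in kb from the Bhmt start. Bhmt stands at 3.76 and 3.40 while Bhmt2 and Dmgdh, drawn almost on one another, stand at 0.25 to 0.84. Tent2 has no value, since no row bore that name.

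Chdh, choline dehydrogenase, makes betaine aldehyde from choline. It stood at 232, 301 and 166 CPM in db/m, at 201, 200 and 570 in db/db and at 311, 493 and 542 in db/db-dapa. db/db replicates 1 and 2 lay within the db/m range and replicate 3 far above it, while all treated mice exceeded all db/m mice. The log2 fold change was 0.48 (SE 0.40) for db/db and 0.94 (SE 0.40) for db/db-dapa against db/m. The first was 0.72 when db/db replicate 1 was left out and -0.23 when db/db replicate 3 was, so that difference rests on db/db replicate 3.

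Aldh7a1, an aldehyde dehydrogenase that completes betaine synthesis and also acts in lysine breakdown, varied least among the db/m mice. It stood at 477, 460 and 455 CPM in db/m, at 426, 602 and 548 in db/db and at 504, 648 and 635 in db/db-dapa. The treated mice were above all db/m mice, and db/db replicate 1 was below them. The log2 fold changes against db/m were 0.18 (SE 0.18) in db/db, 0.31 without db/db replicate 1, and 0.36 (SE 0.18) in db/db-dapa.

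Sardh, sarcosine dehydrogenase, takes the last methyl group from sarcosine. It stood at 282, 281 and 329 CPM in db/m, at 188, 512 and 391 in db/db and at 513, 427 and 382 in db/db-dapa. Except for db/db replicate 1, each diabetic mouse was above each db/m mouse. The log2 fold change against db/m was 0.29 (SE 0.30) in db/db and 0.57 (SE 0.30) in db/db-dapa. With db/db replicate 1 left out the first was 0.60, and with db/db replicate 2 left out -0.03.

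Gnmt, glycine N-methyltransferase, runs the other way, making sarcosine from glycine at the expense of S-adenosylmethionine. It was low, at 29.8, 22.5 and 43.3 CPM in db/m, 25.2, 25.6 and 30.9 in db/db and 19.7, 24.7 and 22.6 in db/db-dapa. All treated mice were below all untreated db/db mice, by a narrow margin, and both groups overlapped db/m. Its log2 fold change was -0.21 (SE 0.23) for db/db against db/m (-0.16 without db/db replicate 1), -0.51 (SE 0.23) for db/db-dapa against db/m and -0.29 (SE 0.23) for db/db-dapa against db/db.

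Mat2a, the main S-adenosylmethionine synthetase outside the liver, stood at 353, 297 and 282 CPM in db/m, at 202, 202 and 451 in db/db and at 285, 337 and 403 in db/db-dapa. All groups overlapped, and db/db replicate 3 again lay far above its group. Its log2 fold change for db/db against db/m was -0.12 (SE 0.29), 0.07 without db/db replicate 1 and -0.63 without db/db replicate 3, so its sign turned too. For db/db-dapa against db/m it was 0.14 (SE 0.29).

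Ahcy, which splits S-adenosylhomocysteine into homocysteine and adenosine, stood at 339, 296 and 312 CPM in db/m, at 183, 285 and 320 in db/db and at 257, 326 and 338 in db/db-dapa. The groups overlapped in every comparison. The log2 fold changes against db/m were -0.26 (SE 0.22) in db/db, -0.06 without db/db replicate 1, and -0.04 (SE 0.21) in db/db-dapa.

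Cbs, cystathionine beta-synthase, was the only member lower in every db/db mouse than in every db/m mouse. It stood at 260, 244 and 267 CPM in db/m, at 150, 194 and 219 in db/db and at 234, 258 and 262 in db/db-dapa. The treated mice overlapped the db/m mice and were all above the untreated ones. The log2 fold change was -0.45 (SE 0.17) for db/db against db/m, -0.03 (SE 0.17) for db/db-dapa against db/m and 0.42 (SE 0.17) for db/db-dapa against db/db. With db/db replicate 1, the lowest, left out, the first was -0.32 and the last 0.28.

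**Figure D3:**
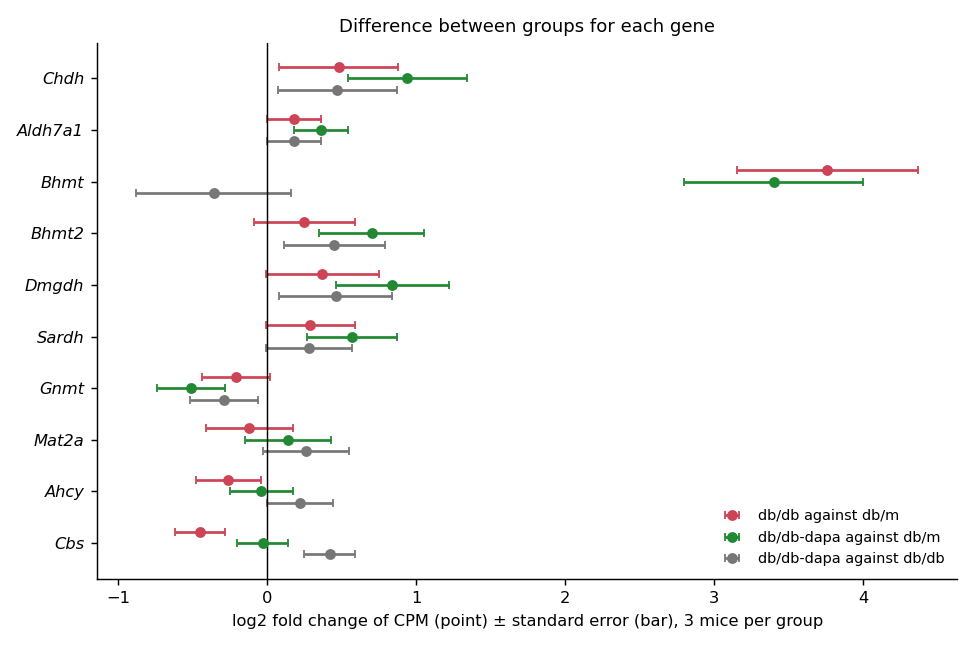
Log2 fold change (point) and SE (bar) of each gene in the 3 comparisons, 3 mice per group, on a linear axis of log2 values. Bhmt alone lies beyond 1, at 3.76 and 3.40 against db/m, and the db/db-dapa against db/m values of Chdh, Aldh7a1, Bhmt2, Dmgdh and Sardh lie between 0.36 and 0.94.

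Counted by overlap, 2 of the 10 genes (Bhmt and Cbs) kept apart the db/db and db/m mice, where 16.4% of all genes did. Between db/db-dapa and db/m, 6 of the 10 kept the groups apart (Bhmt, Bhmt2, Chdh, Aldh7a1, Dmgdh and Sardh), all with the treated mice higher, where 28.1% of all genes did. The proximal tubule markers differed in the same direction: 10 of 16 were higher without overlap in db/db-dapa than in db/m and none lower, and their part in the members' difference was not tested. Between db/db-dapa and db/db, 2 did (Gnmt and Cbs), where 10.2% of all genes did. The median log2 fold change of the 10 was 0.22, 0.46 and 0.27 in these comparisons, beside 0.02, -0.02 and -0.01 over all genes tested. Without db/db replicate 1, the members' values for db/db-dapa against db/db ran from -0.82 for Bhmt to 0.28 for Cbs.

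Levels of different genes were set side by side as CPM per kilobase of the longest consensus transcript. In db/m the order was Ahcy, at 124 ± 8.69 CPM per kb, then Aldh7a1, Mat2a, Sardh, Bhmt2, Cbs, Chdh, Dmgdh, Gnmt and, last, Bhmt, at 3.18 ± 1.49 (SD, n = 3). Neighbours in that order overlapped in their values except for Mat2a above Sardh and Gnmt above Bhmt. In db/db Bhmt was seventh, at 43.6 ± 30.9 CPM per kb, and no neighbours were free of overlap. In db/db-dapa it was ninth, at 34.2 ± 9.17, above Gnmt at 21.6 ± 2.4 without overlap, and Aldh7a1 was first, at 144 ± 19.2.

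The table does not state whether reads were counted by strand. Dmgdh, Chdh, Aldh7a1 and Mat2a overlap measured genes on the opposite strand, of which the most abundant was Cacna1d, over Chdh, at 46.6 to 52.4 CPM on average per group, so a part of their reads could not be told apart without strand. No row matched by GENCODE name overlapped Bhmt, whose estimated counts were whole numbers in 9 of 9 mice.

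The other genes of the pathway were taken as 11 lists, with 160 genes in all, of which 157 had a row and 145 were tested. Of the 145, 6 were called in db/db against db/m (3 higher and 3 lower), which is 4.14%, beside 1.24% of all genes. In db/db-dapa against db/m 9 were called (5 higher and 4 lower), which is 6.21%, beside 1.05%. With an adjusted p under 0.1 alone there were 8 and 10, where 1.67% and 1.31% of all genes passed, and 0 passed in db/db-dapa against db/db, where 0% of all genes did (edgeR's quasi-likelihood test, Benjamini-Hochberg over 15583 genes). Most listed genes did not pass: the median log2 fold change over the 145 was -0.01, 0.05 and 0.13 in the 3 comparisons. The lists were drawn up with earlier results of these mice known and were not matched in level to all genes. No excess is therefore read from these shares.

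Among enzymes of glycine, serine and folate, 3 genes passed, all upward. Gldc, the decarboxylase of the glycine cleavage system, stood at 136, 179 and 121 CPM in db/m, at 342, 418 and 506 in db/db and at 372, 445 and 416 in db/db-dapa. Each diabetic mouse was above each db/m mouse, and Gldc rose by a log2 fold change of 1.54 (SE 0.21, adjusted p = 0.00884) in db/db and 1.5 (SE 0.21, adjusted p = 0.013) in db/db-dapa. Ftcd, which passes the formimino group of histidine to folate, stood at 42.4, 32.8 and 42.4 CPM in db/m, at 82.6, 97.4 and 141 in db/db and at 104, 102 and 115 in db/db-dapa. It rose by 1.46 (SE 0.22, adjusted p = 0.0127) and 1.45 (SE 0.22, adjusted p = 0.017). Shmt1, the cytosolic enzyme that interconverts serine and glycine, stood at 36.6 to 43.5 CPM in db/m, 64.9 to 92.8 in db/db and 65.3 to 106 in db/db-dapa. Its log2 fold change was 0.97 (adjusted p = 0.0672) and 1.04 (adjusted p = 0.0623). These 3 were 2 of the 18 genes tested on the glycine, serine and sarcosine list and 1 of the 19 on the folate list, and no gene of either list passed downward.

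Among 12 genes on the list of methyltransferases, Inmt, an amine N-methyltransferase, fell. It stood at 1460, 1180 and 1400 CPM in db/m, at 332, 574 and 600 in db/db and at 605, 628 and 601 in db/db-dapa, with log2 fold changes of -1.42 (SE 0.23, adjusted p = 0.0148) and -1.14 (SE 0.22, adjusted p = 0.0585). Mettl7b, a thiol methyltransferase, fell in db/db by 0.87 on the log2 scale (adjusted p = 0.0685), and its value in db/db-dapa, -0.69, had an adjusted p of 0.139. Gatm, which makes the guanidinoacetate that creatine synthesis then methylates, is no methyltransferase itself although it stands on this list. It stood at 824 to 1370 CPM in db/m, 1270 to 1740 in db/db and 1830 to 2340 in db/db-dapa, and rose in db/db-dapa (log2 fold change 0.95, SE 0.22, adjusted p = 0.0987), while in db/db its value was 0.54 (adjusted p = 0.311).

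Odc1, ornithine decarboxylase, the first step of polyamine synthesis, was the gene of the 17 on its list that passed. It stood at 1070, 1300 and 1520 CPM in db/m, at 385, 361 and 413 in db/db and at 717, 675 and 550 in db/db-dapa. The treated mice lay between the other groups without overlapping either, and Odc1 fell by 1.75 on the log2 scale in db/db (SE 0.19, adjusted p = 0.00227) and by 1.0 in db/db-dapa (SE 0.19, adjusted p = 0.0511). The difference between db/db-dapa and db/db, 0.74 (SE 0.19), had an adjusted p of 0.854. Cdo1, cysteine dioxygenase, was at 48.5 to 101 CPM in db/m, 39.4 to 48.3 in db/db and 29.4 to 40.6 in db/db-dapa. It fell in db/db-dapa (log2 fold change -1.17, SE 0.25, adjusted p = 0.0762), and its value in db/db was -0.74 (adjusted p = 0.232).

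Betaine is an osmolyte as well as a methyl donor, and 8 genes tested on the list of NFAT5 and its targets divided in direction. Akr1b3, the aldose reductase that makes sorbitol, stood at 51.3, 37.7 and 62.6 CPM in db/m, at 17, 20.6 and 16.5 in db/db and at 28.4, 20 and 24 in db/db-dapa. It fell, with log2 fold changes of -1.48 (SE 0.23, adjusted p = 0.0132) and -1.07 (SE 0.22, adjusted p = 0.0627). Sgk1, a kinase induced by corticosteroids and osmotic stress, stood at 161, 94.2 and 92.6 CPM in db/m, at 299, 329 and 307 in db/db and at 274, 179 and 267 in db/db-dapa, and rose by 1.42 (SE 0.25, adjusted p = 0.0239) and 1.05 (SE 0.25, adjusted p = 0.0987). Slc6a6, the taurine transporter, was at 122 to 205 CPM in db/m, 236 to 652 in db/db and 374 to 607 in db/db-dapa. It rose in db/db-dapa by 1.61 (SE 0.38, adjusted p = 0.0998), and its value in db/db was 1.21 (SE 0.38, adjusted p = 0.191). Against db/m, the list's median was -0.32 for untreated and 0.33 for treated mice. Akr1b3, Sgk1, Slc6a6, Slc5a3 (-0.61 and -0.68) and Nfat5 (0.45 and 0.39) kept their sign in both. Hspa1b (-0.75 and 0.28) and Slc38a2 (-0.02 and 0.37) did not, and Hspa4l was at -0.65 and -0.02. Between db/db-dapa and db/db, Hspa1b, Slc38a2 and Hspa4l each had an adjusted p of 0.854 in edgeR's test. Hspa1b is also on the dissociation list.

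No gene passed on the lists of choline and betaine transport (10 tested of 15 listed), choline phosphorylation and phosphatidylcholine turnover (16), the remaining methionine cycle (11), aldehyde dehydrogenases (14) and lysine breakdown (8), in which Aldh7a1 also acts. The betaine transporter Slc6a12 was not among the genes tested. The most abundant gene per kilobase of the last 4 lists named gives the scale. Chpt1, which makes phosphatidylcholine, was at 1210 ± 73.2 CPM in db/m and 920 ± 302 in db/db, and Tcn2, the carrier of the vitamin B12 that methionine synthase needs, at 2110 ± 447 and 1760 ± 46.8. Aldh6a1, of valine breakdown, was at 673 ± 149 and 1000 ± 342, and Gcdh, of lysine breakdown, at 633 ± 102 and 576 ± 131 (SD, n = 3 each). Their adjusted p-values against db/m were between 0.212 and 0.965 in edgeR's test.

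**Figure D4:**
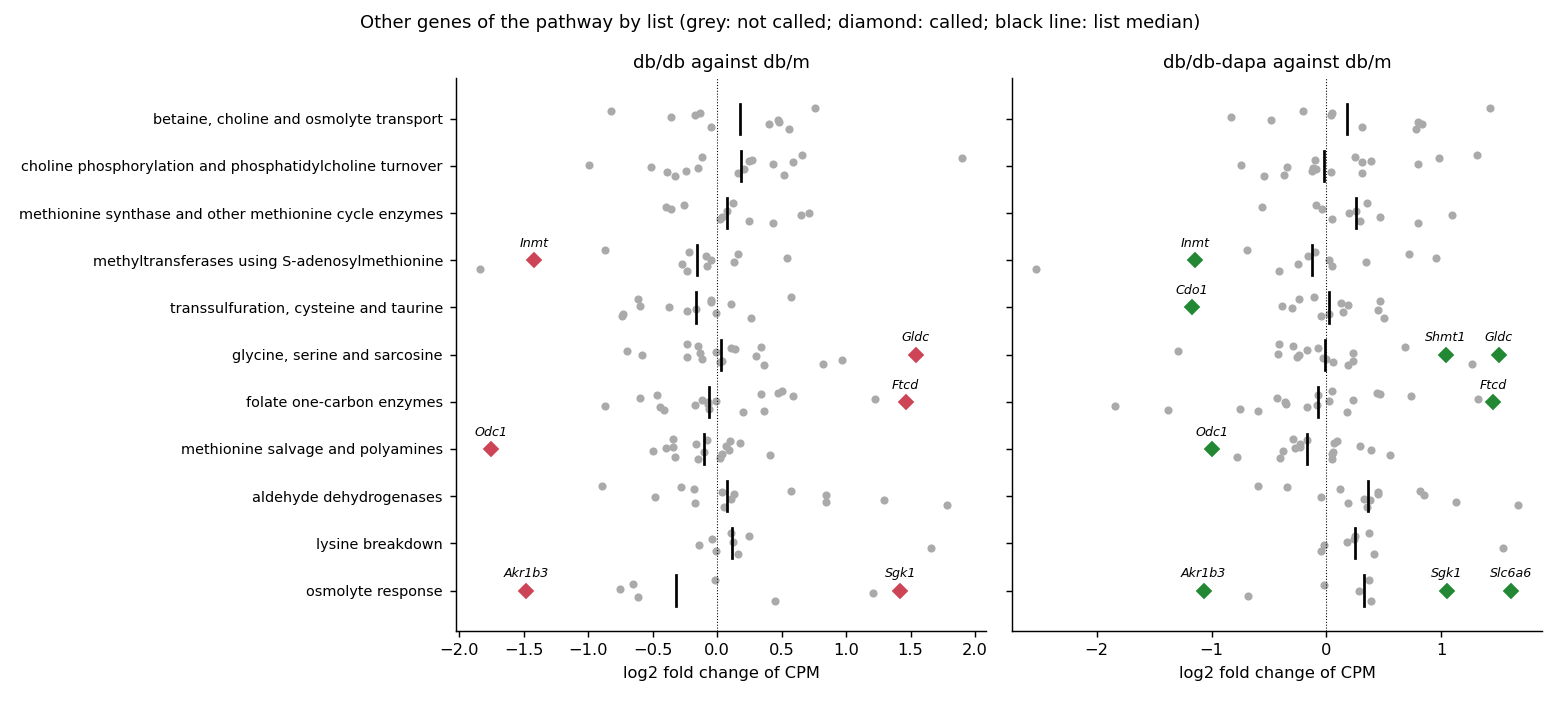
Log2 fold change against db/m of the other pathway genes tested, 1 row per list, for db/db (left) and db/db-dapa (right): grey points were not called, diamonds with a name were called, and the black line is the list's median. The 6 called genes on the left and 9 on the right lie on 5 and 6 of the 11 lists, and the medians lie between -0.32 and 0.36.

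How firm these calls were differed between the comparisons. In db/db against db/m, the 6 called genes (Inmt, Gldc, Ftcd, Odc1, Akr1b3 and Sgk1) passed under all 20 other settings, including each mouse left out. In db/db-dapa against db/m, none of the 10 genes that passed did so under all 20: without db/db-dapa replicate 2, 0 pathway genes were called, and Gldc and Ftcd each had an adjusted p of 0.104. The count was 2 when db/db-dapa replicate 3 or db/m replicate 3 was left out. It was 4 when db/m replicate 1 was left out, 5 for db/m replicate 2, 6 for db/db replicate 2 and 17 for db/db replicate 3. Mettl7b in db/db, where its fold change was too small for a call, no longer had an adjusted p under 0.1 when any of 6 mice was left out, which were db/m replicates 1 and 3, db/db replicates 1 and 2 and the treated replicates 2 and 3 (adjusted p of 0.102 to 0.258), and the same held for Shmt1 in db/db when any db/m mouse, replicate 2 of the untreated or replicate 2 of the treated mice was (0.128 to 0.226).

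**Figure D5:**
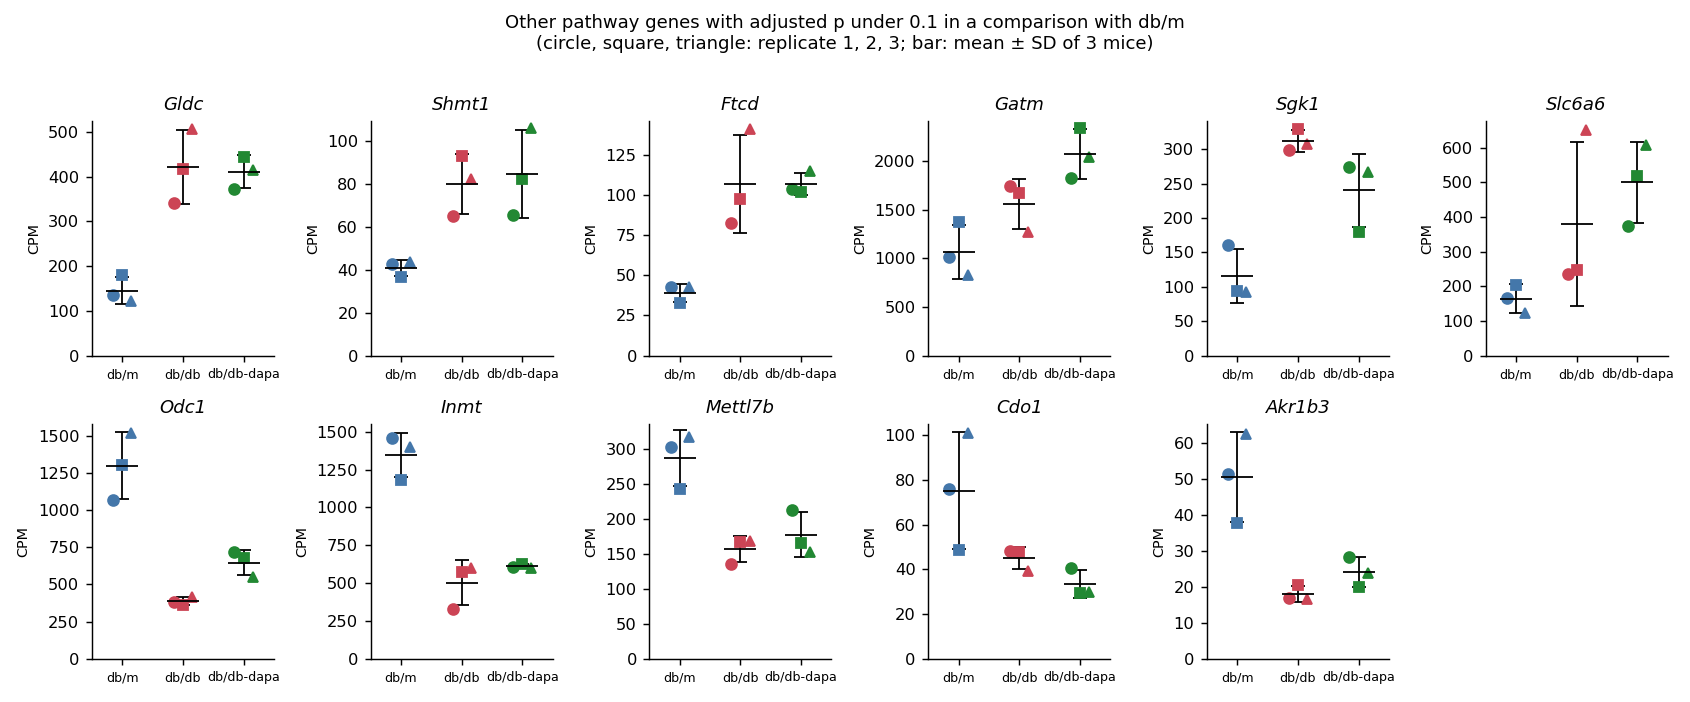
Level in every mouse of the 11 other pathway genes with an adjusted p under 0.1 in a comparison with db/m, as TMM-scaled CPM on axes from 0, with symbols for replicates 1 to 3 and the mean ± SD of 3 mice. Gldc, Shmt1, Ftcd, Sgk1 and Slc6a6 are higher in all 6 diabetic mice than in the db/m mice, and Odc1, Inmt, Mettl7b, Cdo1 and Akr1b3 are lower.

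Marker lists differed between the groups along with Bhmt and with the members that were higher in db/db-dapa. Of the 16 proximal tubule markers, 3 were higher and 1 lower without overlap in db/db than in db/m. Over all genes tested, 16.4% did not overlap between untreated db/db and db/m mice, in either direction. Between treated db/db and db/m mice 28.1% did not. The counts of each list below stand beside these shares. A list of 11 early proximal tubule genes (S1 and S2 segments) summed to 11400 to 13100 CPM in db/m, 12100 to 15000 in db/db and 14700 to 16500 in db/db-dapa. Of the 11, 4 were higher and 1 lower without overlap in untreated db/db mice than in db/m. In treated ones 7 were higher and 1 lower. Gatm, named above among the pathway genes, is also on this list. Slc34a1, Slc5a2 and Slc22a6 stand on both this list and the proximal tubule list. A list of 12 hormone-responsive tubule genes, led by Kap, summed to 32200 to 43000 CPM in db/m, 5020 to 9410 in db/db and 9290 to 14000 in db/db-dapa. Of the 12, 6 were lower and 3 higher without overlap in untreated db/db mice, and 5 lower and 4 higher in treated ones, than in db/m. A list of 13 genes of the S3 segment, the last part of the proximal tubule, summed to 2040 to 2380 CPM in db/m. It summed to 545, 751 and 1960 CPM in db/db replicates 1 to 3 and to 1420 to 1870 in db/db-dapa. Against db/m, 5 of 13 were lower and 1 higher without overlap in untreated db/db mice. In treated ones 5 were lower and 3 higher. Slc7a12 stands on this list and on the hormone-responsive one. Because Bhmt is best known from hepatocytes, 13 hepatocyte genes were summed too, at 176 to 244 CPM in db/m, 407 to 670 in db/db and 314 to 383 in db/db-dapa. Most of this was Apob, at 151, 441 and 234 CPM on average, which kidney tubules also express. Alb averaged 22.2, 34.1 and 45.9 CPM in db/m, untreated and treated db/db mice, Serpina1a 3.63, 23.7 and 22.4, Serpina1c 1.71, 9.31 and 12.6, Fga 6.09, 21.8 and 26.3, and Ttr 22, 6.81 and 3.93. Ahsg and Cps1, defining genes of hepatocytes, were at 0 in every mouse. Of these 13, 2 were higher without overlap in untreated and 5 in treated diabetic mice than in db/m, and none lower. Nothing is read from hepatocyte counts this small beside the shares over all genes. The part of these lists in the difference of Bhmt and of the other members was not tested.

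The genes whose levels followed Bhmt most closely over the 9 mice were found by Pearson's r of log2(CPM + 1) among 10515 genes with a mean of at least 5 CPM. They were Plekha7 (r = 0.984), Zfp280c (0.978), Ambra1 (0.974), Ttf2 (0.972) and Zfp462 (0.971), with Spearman's rho from 0.933 to 1. Leaving out the mice farthest from the median of Bhmt, db/m replicates 3 and 2, gave r of 0.963, 0.954, 0.973, 0.938 and 0.941. Their own range was far smaller than that of Bhmt: Plekha7, a junction protein, stood at 67.5 ± 6.06 CPM in db/m, 112 ± 15.1 in untreated and 105 ± 4.96 in treated db/db mice (SD, n = 3 each). The most opposite were Pdf (r = -0.968), Mkrn1 (-0.958) and Rpl3 (-0.956). The 9 points are mice of 3 groups and share the group difference and the library of each mouse, so these values describe likeness only.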

How the data were processed

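Poly(A) RNA of sorted tdTomato-positive cells from 9 mice was sequenced by the authors. The submitters' processing notes name TopHat2 2.0.13, Bowtie2 2.2.3, SAMtools 0.1.19, Cufflinks 2.2.1 and the mm10 build. The deposited table is named for FPKM, but its values are estimated counts per gene (90.95% whole numbers, sums that differ between mice), so the count test planned for that case was used; the counter and its use of strand were not given in the sources used here. Counts shared between overlapping or similar genes may therefore be split in ways that cannot be checked.

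Values were rounded and analysed with edgeR 4.0.16 in R 4.3.3: TMM scaling, genes with at least 0.3 CPM in at least 2 of 9 mice (15583 of 24421), glmQLFit and glmQLFTest on 1 fit of all 9 mice, Benjamini-Hochberg adjustment over all genes tested, with a call at an adjusted p under 0.1 where the log2 fold change also exceeded 1 in size. Mice were grouped and numbered by their labels. The p-values set each difference against the spread between mice, estimated in 1 fit from all 9, so a mouse outside a comparison also affects them. With 3 mice against 3, an exact permutation test cannot go below 0.1, so none was run on single genes. The script was tested on simulated data. Depth was 2733349 to 9033123 counts per mouse.

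The members and the lists were chosen with earlier results of these data known. Named from each list were all genes with adjusted p under 0.1 in any comparison (at most 6), or else the most abundant per kilobase, and the 5 genes most like Bhmt and 3 most unlike. The result for 1 gene that this rule names is not reported here. The search for CAAAGGTCA and for 3 copies of AGGTCA, and the Bhmt neighbours, were chosen after values were seen. Alternatives were other scalings, filters, DESeq2 1.42.0, limma 3.58.1 with and without mouse weights, only the 2 groups compared, a replicate block, and each mouse left out. Coordinates come from GENCODE (GRCm38) and promoter sequence from RefSeq (GRCm38.p6). Deviations of same-numbered mice from their group means had a correlation over 0.1 in 3 of 9 pairs. Between db/db and db/db-dapa it was 0.402, -0.159 and 0.563 for replicates 1 to 3. Whether same-numbered mice shared a batch was not tested.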

Additional observations from a re-analysis of the deposited data

How the results depend on the processing

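Against db/m, Bhmt kept its direction under all 20 other settings, at 2.90 to 4.22 (log2) in db/db and 3.15 to 3.83 in db/db-dapa. Between db/db-dapa and db/db its value ran from -0.82 to 0.45 and kept its sign in 17 of 20. Counts of calls moved more, and the cause was not tested. For db/db against db/m, all genes called were 363 with DESeq2, 115 with only the 2 groups and 85 to 230 with 1 mouse left out, against 194, and pathway genes called were 10 with DESeq2 and 6 to 9 with 1 mouse left out, against 6. For db/db-dapa against db/m, all genes called were 275 without a filter, 507 with DESeq2, 1619 with limma's mouse weights, 630 with only the 2 groups and 14 to 664 with 1 mouse left out, against 164. Pathway genes called there were 17, 18 and 17 with DESeq2, mouse weights and only the 2 groups, and 0 to 17 with 1 mouse left out, against 9. For db/db-dapa against db/db, where 0 were called, DESeq2 called 13, mouse weights 449 with 4 pathway genes, and leaving out 1 mouse 0 to 272 with 0 to 8 pathway genes, the highest both without db/db replicate 3. Of 600 member values, 596 moved by less than 1 SD between replicates (log2 scale, pooled over the groups compared), and the 4 others were Chdh and Mat2a without db/db replicate 3. That share was partly fixed in advance, because leaving out a mouse of the third group hardly moves a fold change. The SD between mice was also wide. Bhmt at -0.82 and 0.45 in db/db-dapa against db/db, from -0.36, counted among the 596. Stability is therefore not read from this count. With limma's mouse weights Bhmt was 2.90 for db/db against db/m and 0.45 for db/db-dapa against db/db, shifts larger than their SEs. Of 360 values of the tested pathway genes, 64 lost significance and 0 changed direction. With the replicate number as a replicate block, Bhmt was 3.48 and 3.25 against db/m and pathway calls were 6 and 7. Whether the numbers pair the mice is not given, and the correlations of same-numbered mice ran from -0.323 to 0.563. Depth limited little: 3 counts were at most 1.02 CPM, and the lowest member value was 4.66 CPM.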
